A study of Arabidopsis thaliana with 12 samples.

Results

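Transcript signals of the serine carboxypeptidase-like (SCPL) genes of Arabidopsis thaliana were examined on 12 Affymetrix ATH1 GeneChip arrays. A gene counted as a member where its symbol or a synonym in the gene annotation is SCPL followed by a number and where a probe set, a group of short probes designed to read 1 transcript, pairs with that gene alone. This rule gave 29 members, each with 1 probe set, out of 51 SCPL genes in the annotation and 22746 probe sets tested. The arrays form 4 groups of 3: the wild type Col-0 under control conditions, Col-0 after 2 h of dehydration, the mutant siz1-3 under control conditions and siz1-3 after 2 h of dehydration. The mutant carries an insertion in SIZ1, whose product is an E3 ligase that joins the small modifier protein SUMO to its targets, and 1 allele was used. Plants were 3 weeks old, with 21 days given for 1 array, control Col-0 replicate 1. No tissue is named in the labels, which do not say whether the replicates of a group are separate batches of plants, so p-values measure only how these samples vary, which may be technical variation. Precision throughout is limited by the 3 arrays in each group.

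Serine carboxypeptidases cut single amino acids from the carboxyl end of proteins and peptides with a catalytic triad of serine, aspartate and histidine in an alpha/beta hydrolase fold. They enter the secretory pathway, and many of them reach the vacuole or the cell wall. In plants the family has grown far beyond protein breakdown: several members no longer act as peptidases and instead move an acyl group from a glucose ester to an acceptor. SNG1 (SCPL8) thus makes sinapoylmalate, the ultraviolet screen of Arabidopsis leaves, SNG2 (SCPL19) makes sinapoylcholine in seeds, SCPL10 adds sinapate to anthocyanins and SCPL17 acylates glucosinolates. BRS1 (SCPL24) is a secreted carboxypeptidase known from brassinosteroid signalling, SCPL49 is the homologue of yeast carboxypeptidase Y and SCPL48 is used as a marker gene of developmental programmed cell death.

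The measured members are SCPL16, SCPL18, SCPL20 to SCPL23, SCPL25 to SCPL35, SCPL38 and SCPL40 to SCPL50. They lie on all 5 chromosomes, with 6, 7, 8, 3 and 5 of them on chromosomes 1 to 5. The other 22 SCPL genes lack an own probe set in the annotation used and were not analysed here. They include SNG1, SNG2, SCPL10, SCPL17 and BRS1, so that the best known acyltransferases are not among the values below, and only SCPL16 and SCPL18 belong to the branch of the family that holds these acyltransferases. Of these 22 genes, 3 are read by probe sets shared with another gene. For 14 of the 29 members no group had a mean signal of 32 or more, a level near the bottom of these arrays where a transcript and the background cannot be separated without detection calls, which were not used. These dim members are SCPL18, SCPL21, SCPL22, SCPL23, SCPL28, SCPL30, SCPL32, SCPL33, SCPL38, SCPL40, SCPL41, SCPL43, SCPL44 and SCPL47. The 15 brighter ones are SCPL16, SCPL20, SCPL25, SCPL26, SCPL27, SCPL29, SCPL31, SCPL34, SCPL35, SCPL42, SCPL45, SCPL46, SCPL48, SCPL49 and SCPL50. Signals are on a linear scale in arbitrary units, and levels are compared between arrays for 1 probe set at a time. Across probe sets, signals were used to sort them as dim or bright, as with the cut of 32, and to form marker sums. They are not read as a ranking of transcript amounts between genes.

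**Figure D1:**
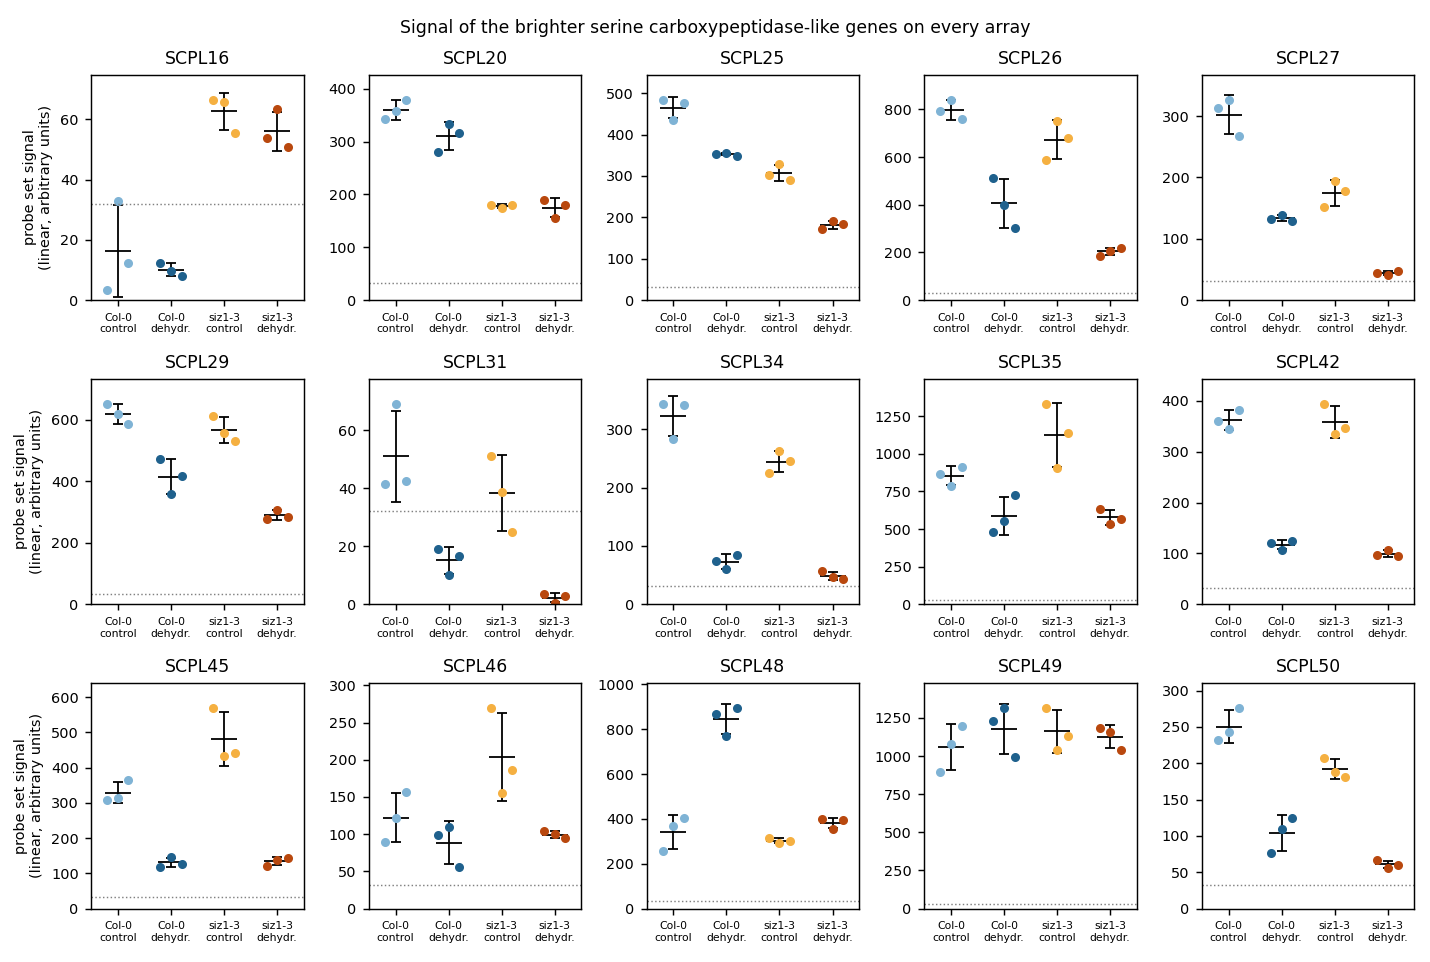
Signal (linear, arbitrary units) of the 15 brighter SCPL genes on each of the 12 arrays, with 3 points per group, a black dash for the group mean and bars for the SD; the dotted line marks 32. In it 10 genes drop from control to dehydration in both genotypes, SCPL48 peaks in dehydrated Col-0, SCPL20 splits by genotype and SCPL16 is above 32 on 1 Col-0 array and on all siz1-3 arrays.

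The arrays differed between the conditions in more than these genes. Median signals were 84.7 to 87.1 in control Col-0, 71.3 to 72.7 in dehydrated Col-0, 87.5 to 88.2 in control siz1-3 and 65.5 to 66.0 in dehydrated siz1-3, while the trimmed mean of every array was 250.02. For the actin control probe sets the ratio of 3' to 5' signal ran from 8.89 to 15.5, 12.9 to 20.2, 8.29 to 19.0 and 15.01 to 18.4 in the same order of groups. Arrays of 1 group correlated at 0.981 to 0.991 over all probe sets. A marker counted as measured where a probe set pairs with its gene alone in the annotation used. Of 7 leaf markers 2 were measured, RCA and LHCB4.1, and their summed signal was 20650.0 to 21584 and 15761 to 16498 in Col-0 before and after dehydration and 17415 to 19900.3 and 11612 to 12582 in siz1-3. Of 7 root markers 3 were measured, the beta-glucosidase PYK10 and the root hair expansins EXPA7 and EXPA18, with sums, set mostly by PYK10, of 915 to 992 and 718 to 1145 in Col-0 and 649 to 749 and 474 to 515 in siz1-3. Here and below, a change or difference is one of log2(signal + 16) from limma, with its standard error and a p adjusted over all probe sets. The root markers disagreed: EXPA7 stayed at 0.940 to 27.2 and was called in no comparison, PYK10 changed on dehydration by 0.03 ± 0.15 (adjusted p = 0.906) in Col-0 and -0.46 ± 0.15 (adjusted p = 0.0271) in siz1-3, and EXPA18 by -0.93 ± 0.19 (adjusted p = 0.00153) and -0.75 ± 0.19 (adjusted p = 0.00514). Between the genotypes PYK10 was at -0.48 ± 0.15 (adjusted p = 0.0519) without stress and -0.96 ± 0.15 (adjusted p = 0.000438) after dehydration, and EXPA18 at 0.32 ± 0.19 (adjusted p = 0.292) and 0.51 ± 0.19 (adjusted p = 0.0572). The flower marker AMS, 1 of 5, read 0.818 to 16.1 over all arrays, and none of the 5 seed markers was measured. Leaf marker sums and array medians were lower after dehydration, and the actin ranges overlapped. Of the leaf markers RCA differed between the genotypes by -0.02 ± 0.10 (adjusted p = 0.936) without stress and -0.45 ± 0.10 (adjusted p = 0.00509) after dehydration, and LHCB4.1 by -0.34 ± 0.11 (adjusted p = 0.0477) and -0.39 ± 0.11 (adjusted p = 0.0157). The part of these markers and of the array medians in the results on SCPL genes was not tested. In RNA of mixed cells, fewer cells of a type and less transcript per cell cannot be told apart.

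As a check of the labels, SIZ1 was read by 2 probe sets. Its brighter probe set gave 388 ± 89.1 and 406 ± 53.7 (SD, n = 3) in Col-0 before and after dehydration and 169.8 ± 8.83 and 94.6 ± 11.4 in siz1-3. The dimmer one went the other way, with 17.4 ± 8.41 and 16.02 ± 16.2 in Col-0 and 87.6 ± 23.3 and 78.7 ± 16.5 in siz1-3. Both separate the genotypes on every array, and where each lies relative to the insertion was not examined.

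Most SCPL genes that responded to dehydration fell, in both genotypes. In Col-0, SCPL25, SCPL26, SCPL27, SCPL29, SCPL31, SCPL34, SCPL35, SCPL42, SCPL45 and SCPL50 fell and SCPL48 and SCPL30 rose, which makes 12 of 29 members called (2 higher, 10 lower). In siz1-3 the same 10 genes fell, SCPL46 fell as well, and no member rose, which makes 11 members called. A gene was called where limma's moderated test on log2 of the signal plus 16, with Benjamini-Hochberg adjustment over all 22746 probe sets, gave an adjusted p under 0.05. Dehydration moved a large share of the whole array by the same rule: 37.1% of all probe sets were called in Col-0, 13.5% higher and 23.5% lower, against 41.4% of the SCPL genes. In siz1-3 47.1% of all probe sets were called, 15.3% higher and 31.8% lower, against 37.9% of the SCPL genes. Over all 29 members the share called is therefore close to the background in Col-0 and below it in siz1-3. The lean towards falls is found among all probe sets too. The 14 dim members hold 1 of the calls in Col-0 and 0 in siz1-3. Among the upper 60% of probe sets by mean log2 signal, 10 of 13 members were called in each genotype. This stands beside 7892 of 13647 probe sets in Col-0 and 9525 in siz1-3. The median log2 fold change of the 29 members was -0.21 in Col-0 and -0.26 in siz1-3, beside -0.09 and -0.16 over all probe sets. By a coarser measure, in which the 3 control arrays and the 3 dehydrated arrays of a genotype do not overlap, 2 members were higher and 11 lower in Col-0 (17.0% and 28.5% of all probe sets), and 1 was higher and 12 lower in siz1-3 (18.5% and 37.3%).

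**Figure D2:**
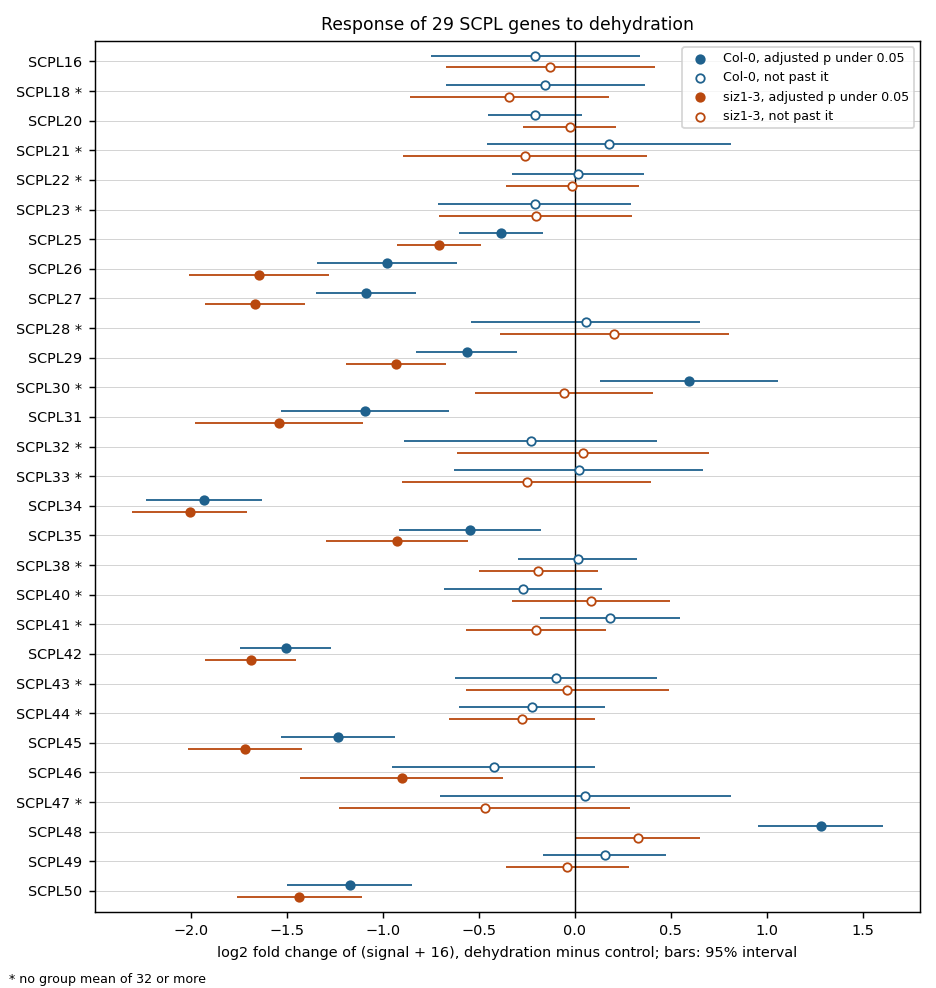
Log2 fold change of (signal + 16), dehydration minus control, for the 29 SCPL genes in Col-0 (blue) and siz1-3 (brown), with 95% intervals; filled points are past an adjusted p of 0.05 and asterisks mark genes with no group mean of 32 or more. The 10 genes called lower in both genotypes lie left of 0 with the siz1-3 point further left, SCPL48 lies right of 0 in Col-0, and the dim genes scatter around 0.

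SCPL34, SCPL42 and SCPL45 had the most negative changes in both genotypes on the scale of log2(signal + 16), which shrinks the changes of dim probe sets. By the ratio of mean signals, dehydrated over control, the dimmer SCPL31 had 0.298 in Col-0 and 0.0604 in siz1-3, and SCPL27 0.252 in siz1-3, against 0.324 and 0.279 for SCPL42 and 0.398 and 0.279 for SCPL45. In control Col-0 SCPL34 (AT5G23210) read 344, 282 and 342, and in dehydrated Col-0 74.8, 59.9 and 84.6. In siz1-3 its signal was 225, 262 and 245 without stress and 56.8, 46.1 and 44.1 after dehydration. The log2 fold change of SCPL34 on dehydration was -1.93 ± 0.14 (adjusted p = 2.46e-07) in Col-0 and -2.004 ± 0.14 (adjusted p = 1.39e-07) in siz1-3. Every dehydrated array of SCPL34 lay below every control array, and the mean dehydrated signal was 0.227 times the control mean in Col-0 and 0.201 in siz1-3. SCPL42 (AT5G42240) read 360.4, 344 and 382 in control Col-0 and 120.2, 108 and 124 in dehydrated Col-0. The siz1-3 arrays read 394, 334 and 346 before and 96.7, 107 and 95.8 after dehydration. The genotypes of SCPL42 overlapped without stress, and all dehydrated arrays lay below all control arrays. The change of SCPL42 was -1.51 ± 0.11 (adjusted p = 2.87e-07) in Col-0 and -1.69 ± 0.11 (adjusted p = 8.44e-08) in siz1-3. SCPL42 lies close to SCPL41 on chromosome 5, and SCPL41, a gene linked to membrane lipid metabolism, read no more than 10.2 on any array. In control Col-0 SCPL45 (AT1G28110) read 309, 313 and 363, and in dehydrated Col-0 119, 146 and 128. In siz1-3 its signal was 569, 432 and 441 without stress and 121, 137 and 144 after dehydration. SCPL45 started from a higher level in siz1-3, where all 3 control arrays lay above those of Col-0, and came down to overlapping levels in the dehydrated groups. Its log2 fold change was -1.23 ± 0.14 (adjusted p = 1.18e-05) in Col-0 and -1.72 ± 0.14 (adjusted p = 4.76e-07) in siz1-3.

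SCPL27, SCPL26, SCPL50 and SCPL31 fell by 0.98 to 1.17 on the log2 scale in Col-0 and by 1.43 to 1.66 in siz1-3. In control Col-0 SCPL27 (AT3G07990) read 314, 327 and 267, and in dehydrated Col-0 133, 138 and 129. In siz1-3 its signal was 153, 195 and 178 without stress and 43.8, 41.1 and 47.5 after dehydration. For SCPL27 the 4 groups were separate from each other, highest in control Col-0, then control siz1-3, then dehydrated Col-0, and lowest in dehydrated siz1-3. Dehydration changed SCPL27 by -1.09 ± 0.12 (adjusted p = 1.14e-05) in Col-0 and by -1.66 ± 0.12 (adjusted p = 2.02e-07) in siz1-3. The arrays of SCPL26 (AT2G35780) gave 794, 841 and 758 in control Col-0 and 513, 399 and 304 after dehydration, and in siz1-3 589, 751 and 681 and 186, 207 and 219. The control arrays of SCPL26 in siz1-3 lay just below those in Col-0, and the dehydrated siz1-3 arrays were the lowest 3 of the 12. Its change was -0.98 ± 0.17 (adjusted p = 0.000450) in Col-0 and -1.64 ± 0.17 (adjusted p = 4.23e-06) in siz1-3. SCPL28, the neighbour of SCPL26 in the annotation, stayed dim at 0.995 to 18.0. For SCPL50 (AT1G15000) the signals were 233, 242 and 276 in control Col-0, 76.9, 109.7 and 125 in dehydrated Col-0, 208, 188 and 181 in control siz1-3 and 66.2, 56.3 and 60.4 in dehydrated siz1-3. The siz1-3 arrays of SCPL50 lay below the Col-0 arrays of the same condition in both conditions. SCPL50 changed by -1.17 ± 0.15 (adjusted p = 4.09e-05) in Col-0 and -1.43 ± 0.15 (adjusted p = 5.29e-06) in siz1-3. Near the bottom of the scale, SCPL31 (AT1G11080) read 41.3, 69.0 and 42.6 in control Col-0 and 18.9, 10.1 and 16.6 after dehydration, and 50.9, 38.8 and 24.9 and 3.57, 0.602 and 2.75 in siz1-3. In the dehydrated groups SCPL31 was thus at the level of dim probe sets. The log2 fold change of SCPL31 was -1.09 ± 0.20 (adjusted p = 0.000824) in Col-0 and -1.54 ± 0.20 (adjusted p = 3.77e-05) in siz1-3, and with values under 32 set to 32 neither stayed past the threshold, with adjusted p-values of 0.0502 and 0.322. Over the alternatives the change of SCPL31 ran from -1.69 to -0.53 in Col-0 and from -3.64 to -0.32 in siz1-3.

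Smaller falls were found for SCPL29, SCPL35, SCPL25 and SCPL46. SCPL29 (AT4G30810) went from 652, 619 and 585 to 472, 359 and 416 in Col-0 and from 612, 556 and 532 to 279, 308 and 283 in siz1-3, a change of -0.56 ± 0.12 (adjusted p = 0.00235) and of -0.93 ± 0.12 (adjusted p = 3.45e-05). With array medians subtracted these were -0.35 and -0.58, still past the threshold. Its control groups overlapped, and its dehydrated siz1-3 arrays were below all others. For SCPL35 (AT5G08260) the arrays read 865, 785 and 909 in control Col-0 and 481, 551 and 727 in dehydrated Col-0, 1332, 904 and 1139.8 in control siz1-3 and 634, 535 and 569 in dehydrated siz1-3. Control and dehydrated arrays of SCPL35 were separate within each genotype, and the 2 dehydrated groups overlapped. SCPL35 changed by -0.55 ± 0.17 (adjusted p = 0.0229) in Col-0 and by -0.93 ± 0.17 (adjusted p = 0.000600) in siz1-3. The call of SCPL35 in Col-0 was lost without any 1 of 4 arrays, with adjusted p-values of 0.0590 and 0.0726 without control Col-0 replicate 1 or 3 and of 0.0985 and 0.0660 without dehydrated Col-0 replicate 1 or 2. It was also lost when array medians were subtracted, where the change was -0.33 (adjusted p = 0.149), while in siz1-3 it was then -0.58 and stayed past the threshold. Tight replicates set SCPL25 (AT3G02110) apart: control Col-0 read 485, 435 and 476, dehydrated Col-0 353, 355 and 349, control siz1-3 302, 329 and 291 and dehydrated siz1-3 171, 191 and 183, so that all 4 groups of SCPL25 were separate. Its change of -0.38 ± 0.10 (adjusted p = 0.00933) in Col-0 was small and became -0.17 (adjusted p = 0.223) with array medians subtracted, while the change in siz1-3 was -0.71 ± 0.10 (adjusted p = 8.35e-05) and became -0.36, still past the threshold. SCPL46 (AT2G33530) varied more between replicates than the other 3, at 89.3, 122 and 156 in control Col-0, 99.3, 110.0 and 55.4 in dehydrated Col-0, 269.6, 156 and 186 in control siz1-3 and 104, 99.6 and 94.2 in dehydrated siz1-3. The Col-0 groups of SCPL46 overlapped, with a change of -0.42 ± 0.24 (adjusted p = 0.209), and its siz1-3 groups did not, with a change of -0.90 ± 0.24 (adjusted p = 0.00824). The call of SCPL46 in siz1-3 was lost under quantile normalization (adjusted p = 0.0645) and with array medians subtracted (adjusted p = 0.0820), and the difference between its 2 responses was not past the threshold, with an interaction of -0.48 ± 0.34 (adjusted p = 0.455).

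The falls in Col-0 and in siz1-3 overlapped. All 10 members lower in Col-0 were also lower in siz1-3, which is 100% of the Col-0 list and 90.9% of the siz1-3 list. Over all probe sets 5348 were lower in Col-0, 7225 in siz1-3 and 4445 in both, or 83.1% and 61.5% of these lists. Each of the 10 had a larger fall in siz1-3 than in Col-0, with median log2 fold changes of -1.59 and -1.09, as did 68.4% of all probe sets lower in both. With quantile normalization or array medians subtracted this held for 9 of the 10, SCPL34 being the exception. None of the 10 was past the threshold in the interaction, the test of the difference between the 2 responses, so a larger fall in siz1-3 was not shown for any single one of them.

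Scaling bears on these values, because the median change over the whole array shifted up, on the log2 scale, by 0.22 in Col-0 and 0.34 in siz1-3 when array medians were subtracted. Among all probe sets the split of higher to lower calls was 3081 to 5348 in Col-0 as deposited, 3706 to 4384 after quantile normalization and 4993 to 3506 with medians subtracted. In siz1-3 the splits were 3482 to 7225, 4339 to 5433 and 6699 to 4107. The calls among the SCPL genes were 2 higher and 10 lower, 2 and 10, and 2 and 8 in Col-0, and 0 and 11, 0 and 10, and 2 and 10 in siz1-3. Their median log2 fold change, however, went from -0.21 to -0.13 and 0.0067 in Col-0 and from -0.26 to -0.15 and 0.09 in siz1-3, so that with array medians subtracted it no longer lay below 0, beside medians of 0.12 and 0.18 over all probe sets. The 2 members called higher in siz1-3 with medians subtracted were SCPL48 and SCPL20.

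**Figure D3:**
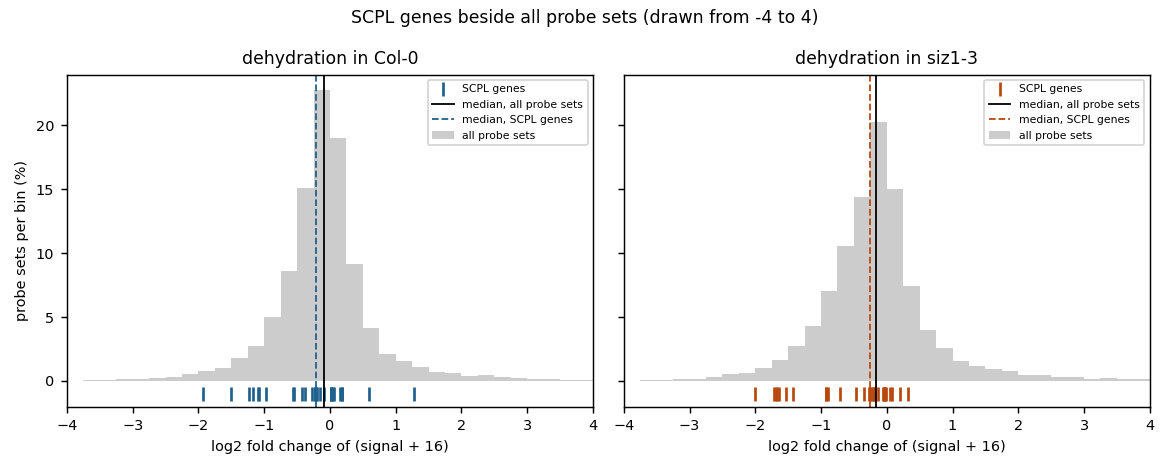
Share of the 22746 probe sets per bin of log2 fold change of (signal + 16) on dehydration (grey bars, in percent) in Col-0 on the left and siz1-3 on the right, with the 29 SCPL genes as ticks under the axis and the 2 medians as lines. The SCPL medians, -0.21 and -0.26, lie left of those of all probe sets, -0.09 and -0.16, and the ticks spread over the range of the bulk of the array.

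SCPL48 was the bright member that rose, and it rose in Col-0. It belongs with SCPL47 and SCPL49 to the branch of the family related to yeast carboxypeptidase Y. SCPL48 (AT3G45010) read 258, 368 and 404 in control Col-0 and went to 869.9, 768 and 894 after dehydration. In siz1-3 it read 313, 290.2 and 302 without stress and 398, 356 and 395 after dehydration. All 3 dehydrated Col-0 arrays of SCPL48 lay above the other 9 arrays, and the control groups of the genotypes overlapped. Its log2 fold change on dehydration was 1.28 ± 0.15 (adjusted p = 1.93e-05) in Col-0 and 0.33 ± 0.15 (adjusted p = 0.0927) in siz1-3, where the dehydrated arrays were above the control arrays without passing the threshold. In siz1-3 the change did pass without control Col-0 replicate 1 (adjusted p = 0.0289), with the 2 siz1-3 groups fitted alone (adjusted p = 0.0329) and with array medians subtracted (0.67, adjusted p = 0.00262). SCPL48 was the 1 member called in the interaction, at -0.95 ± 0.21 (adjusted p = 0.0162): its response in siz1-3 was smaller than in Col-0. Over all probe sets 8.81% were called in the interaction, 3.84% higher and 4.96% lower, against 3.45% of the SCPL genes. The interaction of SCPL48 kept its call in all 19 alternatives, with adjusted p-values of 0.00372 to 0.0468.

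Its relative SCPL49 (AT3G10410), the carboxypeptidase Y homologue of the vacuole, was called in no comparison. SCPL49 read 896, 1079.7 and 1197 in control Col-0, 1229.7, 1313 and 995 in dehydrated Col-0, 1315, 1042 and 1131 in control siz1-3 and 1187, 1156 and 1040.2 in dehydrated siz1-3, and all 4 groups overlapped. The dehydration change of SCPL49 was 0.16 ± 0.15 (adjusted p = 0.470) in Col-0, with a 95% interval of -0.17 to 0.48, and -0.04 ± 0.15 (adjusted p = 0.863) in siz1-3, with an interval of -0.36 to 0.28. SCPL47 was dim on nearly all arrays, at 2.56 to 35.9. SCPL30, the other member called higher in Col-0, was also dim, at 2.43 to 9.11 in control Col-0 and 12.9 to 20.1 in dehydrated Col-0, with siz1-3 between 1.47 and 14.2. The rise of SCPL30, 0.59 ± 0.21 (adjusted p = 0.0448), was near the threshold and was lost without any 1 of 6 arrays: control Col-0 replicate 1 or 2 (adjusted p = 0.0858 and 0.154), dehydrated Col-0 replicate 1 or 3 (0.129 and 0.1003), control siz1-3 replicate 1 (0.0534) and dehydrated siz1-3 replicate 3 (0.0562). A pseudocount of 1 or 64 in place of 16 also ended the call of SCPL30 (adjusted p = 0.136 and 0.0621), and with a floor of 32 its values did not differ at all.

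Without stress, siz1-3 differed from Col-0 in 5 SCPL genes: SCPL16 and SCPL45 were higher in the mutant, and SCPL20, SCPL27 and SCPL25 were lower. This is 17.2% of the members, beside 17.4% of all probe sets (8.90% higher and 8.49% lower), and the median log2 difference was -0.07 beside -0.03. The arrays of the 2 genotypes did not overlap for 2 members that were higher and 7 that were lower in siz1-3, beside 15.1% and 17.2% of all probe sets. SCPL16 is the one brighter member from the branch that holds the acyltransferases, and its neighbour in the annotation, SCPL14, has no probe set of its own here. In control Col-0 SCPL16 (AT3G12220) read 3.37, 33.0 and 12.5, and in dehydrated Col-0 12.5, 9.63 and 8.18. In siz1-3 its signal was 66.6, 65.9 and 55.6 without stress and 53.9, 63.4 and 51.0 after dehydration. All 6 siz1-3 arrays of SCPL16 were above all 6 Col-0 arrays, where it was at the level of dim probe sets except on control replicate 2. SCPL16 differed by 1.39 ± 0.25 (adjusted p = 0.00179) without stress and by 1.47 ± 0.25 (adjusted p = 0.000723) after dehydration, both called in every alternative run. The size of these differences is set by the scale, because the Col-0 arrays are dim: it ran from 0.67 to 2.33 without stress and from 0.70 to 2.37 after dehydration over the alternatives, lowest with a pseudocount of 64 and highest with 1. Dehydration changed SCPL16 by -0.20 ± 0.25 (adjusted p = 0.586) in Col-0 and -0.13 ± 0.25 (adjusted p = 0.729) in siz1-3. SCPL20 had the reverse pattern, a level that followed the genotype and was higher in Col-0. The Col-0 arrays of SCPL20 (AT4G12910) gave 343, 358 and 379.6 without stress and 281, 333 and 317 after dehydration. Those of siz1-3 gave 179.6, 174 and 180.3 and 189.8, 155 and 179. No siz1-3 array of SCPL20 reached the lowest Col-0 array, and the difference was -0.96 ± 0.11 (adjusted p = 6.00e-05) without stress and -0.77 ± 0.11 (adjusted p = 0.000202) after dehydration. Dehydration changed SCPL20 by -0.21 ± 0.11 (adjusted p = 0.177) in Col-0 and by -0.03 ± 0.11 (adjusted p = 0.878) in siz1-3, and the value in siz1-3 turned to 0.32 (adjusted p = 0.0346) with array medians subtracted. SCPL27 and SCPL25, whose arrays are given above, were lower in siz1-3, with log2 differences of -0.74 ± 0.12 (adjusted p = 0.000823) and -0.58 ± 0.10 (adjusted p = 0.00155). SCPL45 was higher in siz1-3 by 0.52 ± 0.14 (adjusted p = 0.0184), a call lost without control Col-0 replicate 1 or 2 (adjusted p = 0.0657 and 0.0613), without control siz1-3 replicate 1 (0.0749) or with the control groups fitted alone (0.0574). The log2 differences of SCPL34, -0.38 ± 0.14 (adjusted p = 0.0846), of SCPL46, 0.66 ± 0.24 (adjusted p = 0.0853), and of SCPL50, -0.36 ± 0.15 (adjusted p = 0.134), did not pass the threshold. The value of SCPL46 passed without dehydrated Col-0 replicate 3 (adjusted p = 0.0431) and over the upper 60% of probe sets (0.0358). That of SCPL34 passed under quantile normalization (0.0476), with a pseudocount of 64 (0.0227) and over the upper 60% (0.0414).

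**Figure D4:**
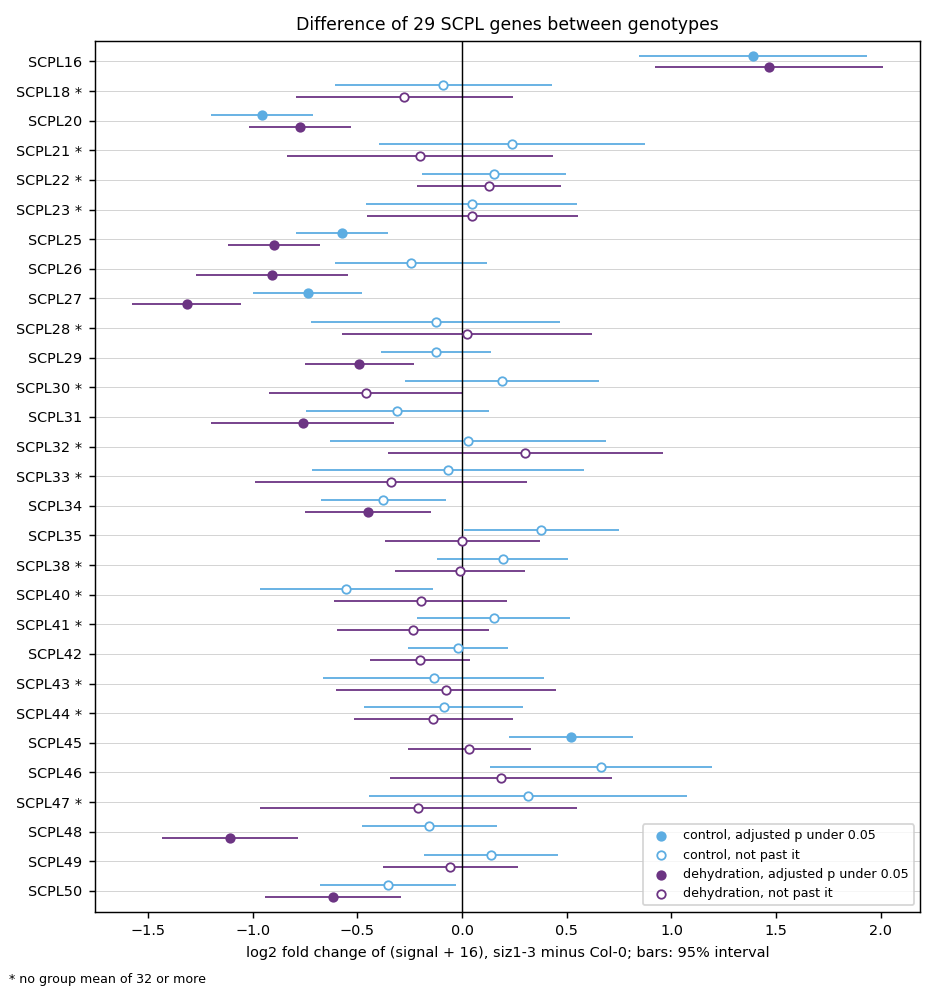
Log2 difference of (signal + 16), siz1-3 minus Col-0, for the 29 SCPL genes under control conditions (light blue) and after dehydration (purple), with 95% intervals; filled points are past an adjusted p of 0.05 and asterisks mark genes with no group mean of 32 or more. SCPL16 lies right of 0 in both conditions, SCPL20, SCPL25 and SCPL27 lie left of 0 in both, and SCPL48 lies left of 0 after dehydration.

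After dehydration 10 SCPL genes differed between the genotypes, and 9 of them were lower in siz1-3. These were SCPL27, SCPL48, SCPL26, SCPL25, SCPL20, SCPL31, SCPL50, SCPL29 and SCPL34, while SCPL16 was higher. The share called was 34.5%, beside 31.5% of all probe sets (12.4% higher and 19.1% lower), and the median log2 difference was -0.20 beside -0.10. Under quantile normalization and with array medians subtracted 1 member was higher and 8 were lower, while the split of higher to lower calls over all probe sets went from 2818 to 4347 as deposited to 2946 to 3634 and 3440 to 3138. Arrays of the genotypes did not overlap for 1 member higher and 11 members lower in siz1-3, beside 16.9% and 27.9% of all probe sets. On this scale SCPL27 had the most negative difference, -1.32 ± 0.12 (adjusted p = 5.05e-06), which was -0.87 with a pseudocount of 64, with means of 134 ± 4.59 in Col-0 and 44.1 ± 3.22 in siz1-3 (SD, n = 3). SCPL48 differed by -1.11 ± 0.15 (adjusted p = 0.000121), with 844 ± 66.9 and 383 ± 23.0. SCPL26 differed by -0.91 ± 0.17 (adjusted p = 0.00120) and SCPL25 by -0.90 ± 0.10 (adjusted p = 3.05e-05). These 2 and SCPL20 had mean signals in siz1-3 of 0.504, 0.516 and 0.564 times those of Col-0. The difference of SCPL31, -0.76 ± 0.20 (adjusted p = 0.0118), rests on signals at the level of dim probe sets in both groups, and was lost with a pseudocount of 64 (adjusted p = 0.0892) or a floor of 32, at which its values did not differ. With a pseudocount of 1 the difference of SCPL31 was -2.38, and its mean signals had a ratio of 0.152, against 0.330 for SCPL27. SCPL50 differed by -0.62 ± 0.15 (adjusted p = 0.00705) and SCPL29 by -0.49 ± 0.12 (adjusted p = 0.00760). SCPL34 differed by -0.45 ± 0.14 (adjusted p = 0.0253) (-0.28 with a pseudocount of 64), which did not pass without dehydrated Col-0 replicate 1 or 3 (adjusted p = 0.0681 and 0.0893) or without dehydrated siz1-3 replicate 2 or 3 (0.0821 and 0.0924). It also failed under quantile normalization (0.0902), with array medians subtracted (0.0832) and with the dehydrated groups fitted alone (0.0520). SCPL45, SCPL35, SCPL42 and SCPL46 did not differ past the threshold after dehydration, with log2 differences of 0.03 ± 0.14 (adjusted p = 0.883), 0.001 ± 0.17 (adjusted p = 0.999), -0.20 ± 0.11 (adjusted p = 0.197) and 0.19 ± 0.24 (adjusted p = 0.626).

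Apart from SCPL48, the interaction was closest to the threshold for SCPL27, -0.58 ± 0.17 (adjusted p = 0.0540), and SCPL26, -0.67 ± 0.24 (adjusted p = 0.107). SCPL27 passed without control siz1-3 replicate 1 (adjusted p = 0.0385), with a pseudocount of 1 (0.0316), with a floor of 32 (0.0103) and over the upper 60% of probe sets (0.0236). SCPL26 passed without dehydrated Col-0 replicate 3 (0.0258) and over the upper 60% (0.0481). SCPL25, at -0.32 ± 0.14 (adjusted p = 0.198), passed with a floor of 32 (0.0282). Over all probe sets the split of higher to lower interactions was 874 to 1129 as deposited and 1229 to 637 with array medians subtracted, where SCPL48 was again the 1 member called. The number of SCPL genes called in the interaction was thus 1 of 29 as deposited, beside 2003 of 22746 probe sets. It was 2 without control siz1-3 replicate 1 and 2 without dehydrated Col-0 replicate 3, beside 1528 and 1885 probe sets. With a pseudocount of 1 it was 2 and with a floor of 32 it was 3, beside 1375 and 2493. Over the upper 60% it was 3 of 13 members, beside 2663 of 13647 probe sets.

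The 14 dim members gave few values that could be read as a level. Their signals ran from 0.296 to 41.3 on single arrays, and no group mean of theirs was above 26.3. Group means were at most 26.3 for SCPL43, 21.7 for SCPL44, 20.9 for SCPL47, 3.66 for SCPL22, 4.34 for SCPL38 and 4.61 for SCPL41. Log2 fold changes of the dim members lay between -0.27 and 0.59 for dehydration in Col-0 and between -0.47 and 0.21 in siz1-3. Between the genotypes they lay between -0.55 and 0.31 without stress and between -0.46 and 0.30 after dehydration. SCPL30 in Col-0 was the 1 call among them. Over all probe sets, bright ones included, 37.1% and 47.1% were called for dehydration in Col-0 and siz1-3. Between the genotypes 17.4% were called without stress and 31.5% after dehydration, and 8.81% in the interaction. The share called among equally dim probe sets was not computed. SCPL40 had the most negative difference of the dim members between the genotypes without stress, -0.55 ± 0.19 (adjusted p = 0.0654), with all siz1-3 arrays, 1.39 to 4.41, below all Col-0 arrays, 8.38 to 18.4. For SCPL21 1 array decided the highest mean, control siz1-3 replicate 3 at 41.3 against 10.2 and 6.29 on the other two. SCPL22 and SCPL23 are neighbours in the annotation and were both dim, at no more than 7.79 and 16.2, as were SCPL18 and SCPL32 at no more than 21.3 and 26.0.

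The pathways in which SCPL acyltransferases work were covered thinly. Here too a gene counted as measured only where a probe set pairs with it alone in the annotation used. Whether other probe sets of the array read the remaining genes was not examined. Of 24 genes of sinapate ester and phenylpropanoid synthesis 5 were measured: UGT84A3, UGT84A1 and UGT84A4, which make glucose esters of hydroxycinnamates, REF1, the aldehyde dehydrogenase that forms sinapate and ferulate, and HCT, a hydroxycinnamoyltransferase of lignin synthesis. On dehydration 1 rose and none fell in Col-0 (13.5% and 23.5% of all probe sets), and 1 rose and 1 fell in siz1-3 (15.3% and 31.8%). UGT84A3, which makes sinapoylglucose, the acyl donor of the SCPL acyltransferases, read 109.9 ± 15.8 and 783 ± 70.0 in Col-0 before and after dehydration and 141 ± 6.08 and 397 ± 63.0 in siz1-3, a log2 change of 2.67 ± 0.14 (adjusted p = 1.52e-08) and 1.39 ± 0.14 (adjusted p = 3.46e-06). Its response was smaller in siz1-3, with an interaction of -1.28 ± 0.19 (adjusted p = 0.00177). UGT84A4 fell in siz1-3, with a log2 change of -0.70 ± 0.19 (adjusted p = 0.00906), a call lost under quantile normalization (0.150) and with array medians subtracted (0.154). REF1 was higher in siz1-3 by 0.78 ± 0.12 (adjusted p = 0.000521) without stress and by 0.57 ± 0.12 (adjusted p = 0.00275) after dehydration. HCT and UGT84A1 were called in no comparison as deposited; HCT passed for dehydration without dehydrated Col-0 replicate 2 in Col-0 (adjusted p = 0.0377) and in siz1-3 (0.0320), and also between the dehydrated genotypes (0.0468). In siz1-3 HCT, at 0.34 ± 0.14 (adjusted p = 0.0610), passed without control siz1-3 replicate 3 as well (0.0364), with the replicate number as a block (0.0451), with array medians subtracted (0.00134), with a pseudocount of 64 (0.0299), over the upper 60% of probe sets (0.0319) and with the siz1-3 groups fitted alone (0.0436). With array medians subtracted HCT also passed in Col-0 (0.0176) and UGT84A1 in siz1-3 (0.0111), and under quantile normalization REF1 passed in siz1-3 at -0.37 (0.0176).

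Of 13 anthocyanin genes 5 were measured, DFR, a reductase of the pathway, the glycosyltransferases UGT79B1, UGT75C1 and UGT78D2 and the malonyltransferase 5MAT. In Col-0, 4 of them rose on dehydration and none fell (13.5% and 23.5% of all probe sets), while in siz1-3 none rose and 2 fell (15.3% and 31.8%). DFR changed by 2.49 ± 0.19 (adjusted p = 3.95e-07) in Col-0 and -0.19 ± 0.19 (adjusted p = 0.451) in siz1-3, and UGT79B1 by 2.63 ± 0.23 (adjusted p = 1.80e-06) and -0.22 ± 0.23 (adjusted p = 0.501). UGT78D2 rose in Col-0 and fell in siz1-3, with log2 changes of 0.77 ± 0.15 (adjusted p = 0.00101) and -0.91 ± 0.15 (adjusted p = 0.000198). UGT75C1 rose in Col-0 by 1.98 ± 0.44 (adjusted p = 0.00314), and its fall in siz1-3, -1.21 ± 0.44 (adjusted p = 0.0377), was lost without control siz1-3 replicate 1, 2 or 3 (adjusted p = 0.105, 0.0777 and 0.0583) and without dehydrated siz1-3 replicate 1 or 3 (0.0796 and 0.134). That fall was also lost under quantile normalization (0.0999), with array medians subtracted (0.121), with pseudocounts of 1 and 64 (0.0727 and 0.0531) and with a floor of 32 (0.280). After dehydration all 5 were called lower in siz1-3 than in Col-0 (19.1% of all probe sets), and 4 were called lower in the interaction (4.96%). Without dehydrated siz1-3 replicate 3, 5MAT was called there too (0.00505), as well as for dehydration in Col-0 (0.00930) and in siz1-3 (0.00218). With a floor of 32, 5MAT was called in the interaction (0.0441) and for dehydration in Col-0 (0.00241). Its change in Col-0 also passed with array medians subtracted (0.0363), with a pseudocount of 64 (0.0420) and with the Col-0 groups fitted alone (0.0249). Without stress none of the 5 was called between the genotypes, and among the alternatives run DFR passed without control Col-0 replicate 2 (0.0352).

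Of 10 glucosinolate genes 2 were measured, the side chain enzymes GSL-OH and AOP3. GSL-OH rose by 1.05 ± 0.12 (adjusted p = 1.55e-05) in Col-0 and 1.20 ± 0.12 (adjusted p = 3.64e-06) in siz1-3, and the dim AOP3 was lower in dehydrated siz1-3 than in dehydrated Col-0, at -1.15 ± 0.29 (adjusted p = 0.00881), a call lost with a floor of 32. Without control siz1-3 replicate 3, AOP3 also passed for dehydration in siz1-3 (adjusted p = 0.0177) and in the interaction (0.0386). Of 15 brassinosteroid genes 2 were measured, the receptor BRL1 and BIM1, a partner of the transcription factor BES1. BIM1 read 311 ± 18.0 and 593 ± 134 in Col-0 before and after dehydration and 148 ± 39.5 and 700.5 ± 10.1 in siz1-3, a rise of 0.87 ± 0.18 (adjusted p = 0.00224) and 2.16 ± 0.18 (adjusted p = 9.38e-07). It was lower in control siz1-3 than in control Col-0, at -1.02 ± 0.18 (adjusted p = 0.00178), and BRL1 was called in no comparison. With so few measured genes, no statement on these pathways as a whole follows.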

How the data were processed

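Total RNA was extracted with TriZOL and labelled with biotin after amplification, per the labels' protocols. The authors deposited 1 intensity per probe set and array on a linear scale, and the trimmed mean without the top and bottom 2% of probe sets is the same on all arrays, with the method of summarising probes not given in the sources used here. Depth has no counterpart on arrays. The 64 control probe sets were left out. Log2 of the deposited intensity plus a pseudocount of 16 was fitted with limma 3.58.1 in R 4.3.3, with 1 mean per group over 12 arrays (8 residual and 4.14 prior degrees of freedom), and 5 comparisons were drawn. The scale understates changes of dim probe sets. The script was tested on simulated data. Genes were named through the platform annotation and the TAIR10.1 gene table, and 13513 probe sets pair with exactly 1 gene. Values on every array are given for the 14 called members with the largest called change; other members are given by range. SCPL49 was given on every array too, chosen after its values were seen. Members and lists were chosen with earlier results of these data known. Alternatives were quantile normalization, median subtraction, pseudocounts of 1 and 64, a floor of 32, the upper 60% of probe sets, only the groups compared, a replicate block and leaving out each array.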

Additional observations from a re-analysis of the deposited data

Results flagged for a closer look

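The response to dehydration differed between the genotypes, by limma's interaction term, for 1 of 29 SCPL genes and 6 genes of the pathway lists. Measured genes of these lists numbered 5 for sinapate esters and phenylpropanoids, 5 for anthocyanins, 2 for glucosinolates and 2 for brassinosteroids. Beside this, 8.81% of all probe sets were called in the interaction, 3.84% higher and 4.96% lower. For SCPL48 the interaction, the log2 response in siz1-3 minus that in Col-0, was -0.95. It was -1.28 for UGT84A3, -2.68 for DFR, -2.85 for UGT79B1, -1.68 for UGT78D2 and -3.19 for UGT75C1, so that each of these 5 responded less, or the other way, in siz1-3. For BIM1 it was 1.29, a larger rise in siz1-3.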

How the results depend on the processing

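Of 39 called results of single SCPL genes, 30 kept their call in every alternative run and 9 lost it in at least 1; of 36 results not called for these genes, 7 were called in at least 1. The number of SCPL genes called in the interaction, 1 of 29 as deposited, became 2 with a pseudocount of 1 and 3 with a floor of 32. Over all 22746 probe sets 2003, 1375 and 2493 were called in the same order. Over the upper 60% of probe sets it was 3 of the 13 members tested, beside 2663 of 13647 probe sets. The change of SCPL20 on dehydration in siz1-3 turned from -0.03 to 0.318 with array medians subtracted, the 1 change of direction past the threshold; medians subtracted raise every change on dehydration by the gap between array medians. Leaving out 1 array at a time gave 10 to 12 members called for dehydration in Col-0, 11 to 12 in siz1-3, 4 to 6 between the genotypes without stress, 9 to 10 after dehydration and 1 to 2 in the interaction. Over all 22746 probe sets the same runs gave 7588 to 8529, 9572 to 10900, 3232 to 4172, 5729 to 7224 and 1270 to 1885 calls in that order. Of the 29 members 13 are among the upper 60% of probe sets. SCPL16, SCPL31 and the 14 dim members, SCPL30 among them, have no value there. Over all probe sets 2003 were called in the interaction, and 1270 to 2875 over the alternatives. Arrays with the same replicate number shared no strong deviation from their group means. These deviations correlated at -0.04 to 0.13, 1 of 18 pairs was over 0.1, and 5 of 12 arrays matched their own number best. Whether the samples were grown or processed in pairs cannot be told from these values, because a weak pairing could leave no such trace. With the replicate number as a block, 11, 11, 5, 10 and 1 members were called in the 5 comparisons in the order of the text, against 12, 11, 5, 10 and 1 without it, and the call lost was that of SCPL30 in Col-0 (adjusted p = 0.0699). Over all 22746 probe sets 8304, 10586, 3741, 6969 and 1783 were called with the block, against 8429, 10707, 3955, 7165 and 2003 without it. Among the genes of the pathway lists the block added the call of HCT for dehydration in siz1-3 (adjusted p = 0.0451), and it changed no other call of the SCPL genes or of these lists. Calls of the marker genes and of SIZ1 under the block were not examined. A signal near the bottom of the scale limits what can be said of the 14 dim members.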

Other observations

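SCPL36, SCPL37 and SCPL39 lie next to each other in the annotation and are read by 2 probe sets that each pair with 2 genes. The probe set of SCPL36 and SCPL37 gave at most 1.30 on any array, and the one shared by SCPL39 and AT3G56540 gave 0.546 to 10.7. Neither was called in any of the 5 comparisons, at which level no transcript can be told from background.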
